A study of Mus musculus with 6 samples.

Results

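The genes described here carry out DNA replication and the entry into S phase. They were 40 listed genes, all of which were found by symbol among the 23337 genes of the deposited count tables. The RNA was polyadenylated RNA from alveolar type II cells of mice, the surfactant-making cells of the lung alveolus, sorted by flow cytometry on a red Tomato label. Both groups carried SpC-CreER, a Cre recombinase switched on by tamoxifen and driven by the promoter of surfactant protein C, and ROSA-Tomato, its reporter, and both had acute lung injury by Pseudomonas aeruginosa (PA), a bacterium, with cells taken 10 days after injury. The mutant group (3 libraries) carried Dlk1flox in addition (SpC-CreER/Dlk1flox/ROSA-Tomato), and the wild-type group (3 libraries) did not (SpC-CreER/ROSA-Tomato). Neither the age and sex of the mice nor uninjured animals are given in the labels. Whether each library is a separate mouse is not stated. The labels thus do not settle how much of the spread that p-values measure is technical. The extract protocol also speaks of 8 days of culture, and whether the sequenced cells were cultured is not settled by the labels.

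Before a cell copies its genome, the origin recognition complex, Cdc6 and Cdt1 load the Mcm2 to Mcm7 helicase onto DNA. In S phase the helicase is activated with the GINS complex, and polymerase alpha with primase starts strands that polymerases delta and epsilon extend, held to DNA by the sliding clamp PCNA. Many of these genes are transcribed in bursts at the G1/S boundary by E2F factors. In the lung, type II cells divide rarely at rest and act as progenitors that proliferate after injury.

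Library totals were 22511461 to 30695994 counts, at which 3 counts, the limit that a count of 0 allows, are worth 0.0977 to 0.133 CPM, the count scaled to the library total. Dlk1, the targeted gene, had 0 to 2 counts in every library of both groups and so did not check the genotype labels. Type II markers were abundant throughout, with Sftpc at 45223 to 54195 CPM. Mutant 1 stood apart in the markers of other cell types. Its 6 leukocyte markers summed to 476 CPM against 6.51 to 26.9 CPM in the other 5 libraries, and its 6 fibroblast markers to 213 against 3.37 to 6.82 CPM. Its 7 lymphocyte markers summed to 153 against 23.9 to 30.5 CPM, of which Cd79b alone gave 45.5 against 22.8 to 28.3 CPM. Its 4 club cell markers summed to 8660 against 485 to 786 CPM. All leukocyte, fibroblast and lymphocyte markers were above 3 counts there, while 2 of 6 fibroblast and 2 to 5 of 7 lymphocyte markers were at or under 3 counts in each other library. Wild type 2 differed from the other libraries in Xist, at 184.6 CPM against at most 2.93 CPM. It also differed in the Y-linked gene Ddx3y, at 2.88 CPM against 49.8 to 78.2 CPM. The 3 wild-type libraries were thus not all repeats of the same RNA. Leukocytes and fibroblasts can also divide, and their part in the levels of the replication genes was not tested. The main counts are given below with and without mutant 1. In bulk samples, fewer dividing cells and less RNA per dividing cell cannot be told apart.

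The promoters of the 40 genes were examined because E2F factors are known to act on many of them. RefSeq promoter windows (GRCm38.p6, 250 bases before to 50 after the start of transcription) were available for 32 of the 40 genes. They were searched on both strands for the E2F words TTTCCCGC, TTTGGCGC, TTTCGCGC and TTTGCCGC, and 12 of 32 genes held at least 1 of them. Over all genes with a window, 704 of 27025 did (2.60%), and these were not matched for base composition. The words were about as frequent in the other lists of related genes, at 11 of 33 further replication genes and 9 of 23 E2F and G1/S regulators, and were in 1 of 23 mitosis genes. Among the genes with a word were Mcm3, Mcm5, Mcm6, Mcm7, Cdc6 and Cdt1, which load or form the helicase. The others were Pold1, Pole2, Pola1, Rfc3, Lig1 and Uhrf1. The 6 with the smallest p in the comparison of the groups are shown, with the E2F words in capitals. Each is written along the gene's own strand. For Cdc6, Uhrf1 and Mcm5 the stretch runs up to the last base before the start, and for Pold1, Mcm3 and Pole2 it is the stretch after the start that holds the word. In 31 of the 37 windows, bases 11 to 40 after the start matched an annotated transcript of the gene. The Mcm5 window was not among them, so its start is less certain.
Cdc6 (chr11:98908003-98908150, plus strand): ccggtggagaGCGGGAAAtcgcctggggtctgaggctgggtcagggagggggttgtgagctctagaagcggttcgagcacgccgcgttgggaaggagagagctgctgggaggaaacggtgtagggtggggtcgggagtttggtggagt
Uhrf1 (chr17:56304118-56304312, plus strand): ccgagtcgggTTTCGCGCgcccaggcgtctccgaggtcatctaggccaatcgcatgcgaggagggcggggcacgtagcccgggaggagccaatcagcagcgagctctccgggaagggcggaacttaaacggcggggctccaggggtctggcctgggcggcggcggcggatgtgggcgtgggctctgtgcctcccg
Mcm5 (chr8:75109346-75109508, plus strand): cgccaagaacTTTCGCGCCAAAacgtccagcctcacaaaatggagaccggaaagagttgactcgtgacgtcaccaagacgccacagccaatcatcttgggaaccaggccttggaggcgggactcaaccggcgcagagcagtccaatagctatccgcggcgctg
Pold1 (chr7:44548766-44548787, minus strand): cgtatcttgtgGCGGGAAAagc
Mcm3 (chr1:20820265-20820294, minus strand): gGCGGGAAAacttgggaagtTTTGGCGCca
Pole2 (chr12:69228162-69228191, minus strand): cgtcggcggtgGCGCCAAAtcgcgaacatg
In Mcm5 the capitals are 2 overlapping words on opposite strands, and in Mcm3 they are 2 separate words. Uhrf1 has 2 windows and the word lies in 1 of them. The cell-cycle element TTTGAA, searched in the same way, was in 2 of the 32 genes and in 17 of 23 mitosis genes, against 5466 of 27025 genes overall (20.2%). The box CCAAT was in 18 of 32 and 11096 of 27025 genes (41.1%). A match describes these letters only and is not evidence of binding, and the lack of a match is not evidence against it. No window was available for Mcm4, Gins1, Gins2, Gins4, Pole, Prim2, Rfc2 and Ccne2.

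Replication genes varied among the libraries of both genotypes, and no single gene passed the test. The comparison of the groups asked whether expression in type II cells after injury differs between those labelled Dlk1flox and wild type. Loss of Dlk1 itself could not be checked from these counts. At an adjusted p under 5% (Benjamini-Hochberg over all genes, edgeR quasi-likelihood), none of the 40 genes passed, and none of the 12899 tested genes did (0%). Unadjusted, 476 genes of the 12899 were higher and 373 lower at p under 0.05. All 40 passed the filter on low counts. The lowest adjusted p among them was 0.737. DESeq2 called 0 of the 40 genes and 38 of all tested genes (0.295%), and limma-voom called none of either.

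At an unadjusted p under 0.05 edgeR gave 4 of the 40 genes as higher in the mutants, where the share over all tested genes was 3.69%, and 0 as lower (2.89% of all genes). These were Cdc6, Mcm3, Rrm2 and Pold1. Without mutant 1 the count was 3 (3.01% of all genes), with Mcm3 no longer among them, and without mutant 2 it was 5 (6.69%). It was 1 without mutant 3 (4.72%) and 1 without wild type 1 (2.23%), Pold1 each time, 2 without wild type 2 (1.73%) and 9 without wild type 3 (3.67%). It was 5 by DESeq2 (4.09%), 5 with the replicate number as a block (3.93%) and 10 by limma-voom (4.76%), which also gave 1 gene as lower (5.24%). The 40 genes were chosen with earlier results of these data known, so their counts only describe. Log2 fold changes (mutant minus wild type) were above 0 in 30 of the 40 genes, against 51.1% of all genes, and their median was 0.15 against 0.00 over all genes. Without mutant 1 these were 27 genes, against 48.1% of all genes, and a median of 0.11. Under the block they were 29 genes (50.3% of all genes) and 0.13. The median was 0.07 without mutant 3 and 0.08 without wild type 1.

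In 6 of the 40 genes all 3 mutants lay above all 3 wild types (Cdc6, Mcm3, Rrm2, Pold1, Rfc5 and E2f1), against 5.23% of all tested genes. In 1 gene, Rpa3, all 3 mutants lay below, against 6.43% of all genes. Without mutant 2, 17 genes lay above (12.8% of all genes then), without wild type 3 it was 16 (11.9%), and without mutant 1 it was 7 (11.2%).

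**Figure D1:**
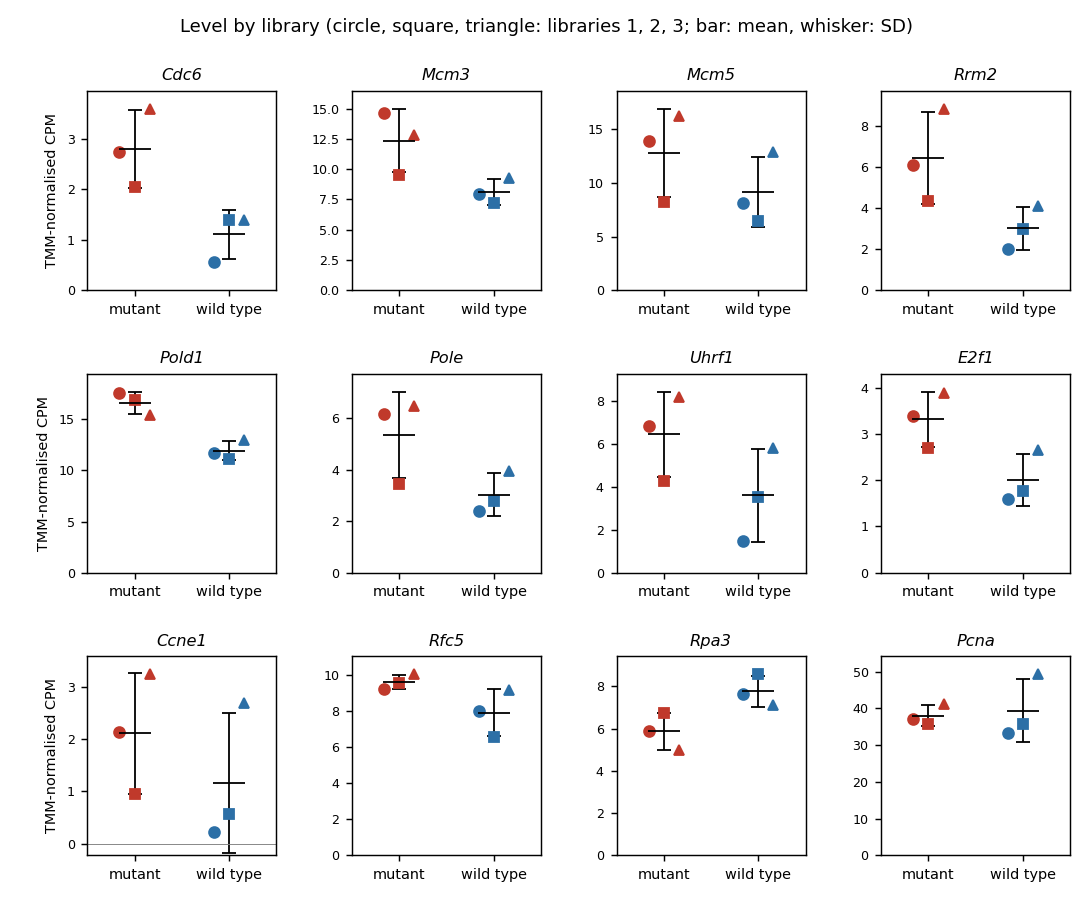
TMM-normalised CPM (vertical axes, starting at 0 except for Ccne1, whose wild-type SD reaches below 0) of 12 replication genes in the 3 mutant and 3 wild-type libraries. Points are libraries, horizontal bars are group means and whiskers are SD. Cdc6, Mcm3, Rrm2, Pold1, Rfc5 and E2f1 show no overlap with the mutants above, Rpa3 shows none with the mutants below, and Pcna, Ccne1, Uhrf1, Pole and Mcm5 overlap.

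Licensing and helicase genes were led by Cdc6, the ATPase that brings the helicase to origins. Cdc6 stood at 2.74, 2.05 and 3.60 CPM in the mutant libraries (1 to 3, in order), and at 0.548, 1.40 and 1.38 CPM in the wild-type libraries. Every mutant was above every wild type, and wild type 1, with 12 counts, was the lowest. The log2 fold change was 1.33 ± 0.47 (SE, 95% interval 0.21 to 2.44, edgeR adjusted p = 0.737), and 1.34 without mutant 1.

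Mcm3, a subunit of the helicase ring, stood at 14.7, 9.54 and 12.9 CPM in the mutant libraries (1 to 3, in order), and at 7.95, 7.17 and 9.28 CPM in the wild-type libraries. Again the groups did not overlap, but mutant 2 was only just above wild type 3. Its log2 fold change was 0.61 ± 0.20 (edgeR adjusted p = 0.737), and without mutant 1, the library in which it was highest, 0.46. Mcm5, its neighbour in the ring, stood at 13.9, 8.26 and 16.2 CPM in the mutant libraries, and at 8.13, 6.49 and 12.9 CPM in the wild-type ones. Mutants 1 and 3 and wild type 3 were high and the other 3 libraries low, so the groups overlapped, and the log2 fold change was 0.48 ± 0.33. With the replicate number as a block Mcm5 joined the genes under an unadjusted 0.05, while its edgeR adjusted p was 0.717. Gins2, a subunit of the GINS complex, ranged from 0.731 to 1.69 CPM, and its log2 fold change was 0.53 ± 0.46. Its annotated exons overlap those of Gse1 on the other strand over 70.7% of their length, and whether counting used strand is not stated in the sources used here.

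The other 4 subunits of the helicase ring, Mcm2, Mcm4, Mcm6 and Mcm7, had log2 fold changes of 0.01 to 0.10. Their 95% intervals together spanned -0.37 to 0.55. Mcm6 stood at 29.1, 38.0 and 45.3 CPM in the mutant libraries, and at 28.1, 37.3 and 40.2 CPM in the wild-type ones, so mutant 1 was among the lowest libraries and mutant 3 the highest. The difference between Mcm3 and the other subunits was not tested. Of the remaining licensing genes, Cdt1, the partner of Cdc6, had 0.17 ± 0.27, which was -0.16 without mutant 1, the library with its highest level (13.2 CPM). Gins1 had 0.20 ± 0.44, Gins4 -0.11 ± 0.12 and Mcm10, which helps start the helicase, -0.22 ± 0.39. Of the 12 genes of this role, 10 were above 0 (51.1% of all genes), and 8 without mutant 1 (48.1%).

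Nucleotide supply was led by Rrm2, the subunit of ribonucleotide reductase whose level follows S phase. Rrm2 stood at 6.13, 4.36 and 8.85 CPM in the mutant libraries (1 to 3, in order), and at 2.01, 2.96 and 4.11 CPM in the wild-type libraries. No mutant overlapped a wild type, mutant 3 was the highest and wild type 1 the lowest. The log2 fold change was 1.09 ± 0.38 (edgeR adjusted p = 0.737, interval 0.20 to 1.98), and 1.13 without mutant 1. With 1 library left out, Rrm2 had 0.79 to 1.37, and 0.87 without wild type 1. Its partner subunit Rrm1 was nearly level, at 33.3, 30.6 and 34.8 CPM in the mutant libraries, and at 32.1, 31.6 and 28.9 CPM in the wild-type ones, with a log2 fold change of 0.09 ± 0.09. The highest library of Rrm1 was 1.20 times the lowest, against 4.40 times for Rrm2. Tyms, which makes thymidylate, had 0.17 ± 0.16. Tk1, thymidine kinase, stood at 8.11, 4.06 and 5.99 CPM in the mutant libraries, and at 6.49, 4.81 and 3.09 CPM in the wild-type ones. Its groups overlapped, with mutant 1 highest and wild type 3 lowest, and its log2 fold change of 0.34 ± 0.37 was 0.07 without mutant 1.

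Among polymerase genes the catalytic subunits of polymerases delta and epsilon had positive fold changes and the 4 genes of polymerase alpha and primase had negative ones near 0. Pold1, the catalytic subunit of polymerase delta, stood at 17.5, 16.9 and 15.4 CPM in the mutant libraries (1 to 3, in order), and at 11.7, 11.1 and 12.9 CPM in the wild-type libraries. The lowest mutant was above the highest wild type, and the spread within each group was small. The log2 fold change was 0.48 ± 0.12 (edgeR adjusted p = 0.737, interval 0.20 to 0.75), and 0.43 without mutant 1. Over the 16 alternatives its adjusted p was 0.328 to 0.998.

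Pole, the catalytic subunit of polymerase epsilon, stood at 6.16, 3.42 and 6.45 CPM in the mutant libraries (1 to 3, in order), and at 2.38, 2.76 and 3.95 CPM in the wild-type libraries. Mutants 1 and 3 were above all wild types, but mutant 2 was below wild type 3. Its log2 fold change was 0.82 ± 0.35 (edgeR adjusted p = 0.737) and 0.71 without mutant 1. The second subunit Pole2, at 1.01 to 1.94 CPM over the libraries, had 0.35 ± 0.38. Pola1, Pola2, Prim1 and Prim2 had log2 fold changes of -0.19 to -0.04, with intervals that together spanned -1.07 to 0.69. Without mutant 2, Pola1 was 0.14, Pola2 0.15, Prim1 0.12 and Prim2 -0.16, so most of these signs rested on that library. Prim1, the catalytic subunit of primase, stood at 5.49, 2.27 and 5.54 CPM in the mutant libraries, and at 4.39, 5.41 and 5.38 CPM in the wild-type ones. Here mutant 2 alone was low and the other 5 libraries were close together. Prim2 had -0.17 ± 0.21, with wild type 3 the highest library.

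Pcna is the sliding clamp, and Rfc1 to Rfc5 are the subunits of replication factor C, which loads it. Pcna stood at 37.2, 35.6 and 41.3 CPM in the mutant libraries (1 to 3, in order), and at 33.4, 35.7 and 49.3 CPM in the wild-type libraries. Wild type 3 was the highest library and the other 5 lay close together, with a log2 fold change of -0.05 ± 0.16. Rfc5 stood at 9.24, 9.58 and 10.0 CPM in the mutant libraries, and at 8.04, 6.57 and 9.16 CPM in the wild-type ones. The lowest mutant library was only just above wild type 3, with a log2 fold change of 0.28 ± 0.18 (edgeR adjusted p = 0.762). Rfc4 had 0.34 ± 0.28, Rfc1, the large subunit, 0.07 ± 0.08, Rfc2 0.03 ± 0.11 and Rfc3 0.03 ± 0.18. The 5 loader genes were thus all above 0, at 0.03 to 0.34, where 51.1% of all genes were above 0. The interval of Rfc5 was -0.14 to 0.70. Without mutant 1, 4 of the 5 loader genes were above 0 (48.1% of all genes), and Rfc2 was -0.04. Rfc3 went as low as -0.11 with 1 library left out. Lig1, the ligase that seals Okazaki fragments, had 0.13 ± 0.16. Fen1, which removes their flaps, had 0.24 ± 0.21, and 0.06 without mutant 1. The exons of Fen1 overlap other genes on the other strand over 84.1% of their length.

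The 3 genes of replication protein A, which coats single-stranded DNA, had fold changes of both signs. Rpa3, the small subunit, stood at 5.88, 6.76 and 4.97 CPM in the mutant libraries (1 to 3, in order), and at 7.63, 8.57 and 7.13 CPM in the wild-type libraries. Every mutant was below every wild type, which of the 40 genes was so for Rpa3 alone, and the log2 fold change was -0.41 ± 0.20 (edgeR adjusted p = 0.739, -0.41 without mutant 1). Rpa1, the large subunit, was among the steadiest genes, at 48.7, 48.3 and 50.0 CPM in the mutant libraries, and at 42.9, 47.2 and 49.6 CPM in the wild-type ones, with 0.07 ± 0.08. Rpa2 stood at 11.7, 6.93 and 11.4 CPM in the mutant libraries, and at 12.4, 9.89 and 9.90 CPM in the wild-type ones, where mutant 2 was low, and had -0.10 ± 0.23.

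Chromatin genes of the fork varied widely within both groups. Uhrf1, which recognises half-methylated DNA behind the fork and guides Dnmt1 to it, stood at 6.83, 4.28 and 8.18 CPM in the mutant libraries (1 to 3, in order), and at 1.46, 3.52 and 5.78 CPM in the wild-type libraries. Wild type 1 was far below all others and wild type 3 was above mutant 2, so the groups overlapped. The log2 fold change was 0.84 ± 0.50 (edgeR adjusted p = 0.749), and 0.47 without wild type 1 and 1.36 without wild type 3. Chaf1a and Chaf1b are the larger subunits of chromatin assembly factor 1, which deposits histones behind the fork. Chaf1a stood at 6.46, 3.34 and 6.49 CPM in the mutant libraries, and at 2.97, 3.85 and 6.31 CPM in the wild-type ones and had 0.31 ± 0.39, which was 0.10 without wild type 1 and 0.67 without wild type 3. Chaf1b stood at 13.6, 7.15 and 15.4 CPM in the mutant libraries, and at 7.95, 13.9 and 16.2 CPM in the wild-type ones and had -0.07 ± 0.35. In both, mutant 2 and wild type 1 were the 2 lowest libraries. The exons of Chaf1a overlap those of Ubxn6 on the other strand over 33.6% of their length.

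Genes of G1/S control were low and variable. E2f1, an activating E2F factor, stood at 3.38, 2.70 and 3.88 CPM in the mutant libraries (1 to 3, in order), and at 1.60, 1.76 and 2.65 CPM in the wild-type libraries. The groups did not overlap, though mutant 2 was only just above wild type 3, and the log2 fold change was 0.73 ± 0.35 (edgeR adjusted p = 0.739). Ccne1, cyclin E1, stood at 2.13, 0.941 and 3.24 CPM in the mutant libraries, and at 0.228, 0.561 and 2.69 CPM in the wild-type ones. It spanned 14.2 times from wild type 1, with 5 counts, to mutant 3, the widest range of the 40 genes, and its log2 fold change of 0.86 ± 0.89 had an interval of -1.24 to 2.96. It was 0.38 without wild type 1 and 2.39 without wild type 3. Ccne2, cyclin E2, stood at 1.49, 2.27 and 1.23 CPM in the mutant libraries, and at 0.914, 1.20 and 2.08 CPM in the wild-type ones, with mutant 2 the highest and a log2 fold change of 0.25 ± 0.47. Ccne1 and Ccne2 thus had different highest libraries.

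**Figure D2:**
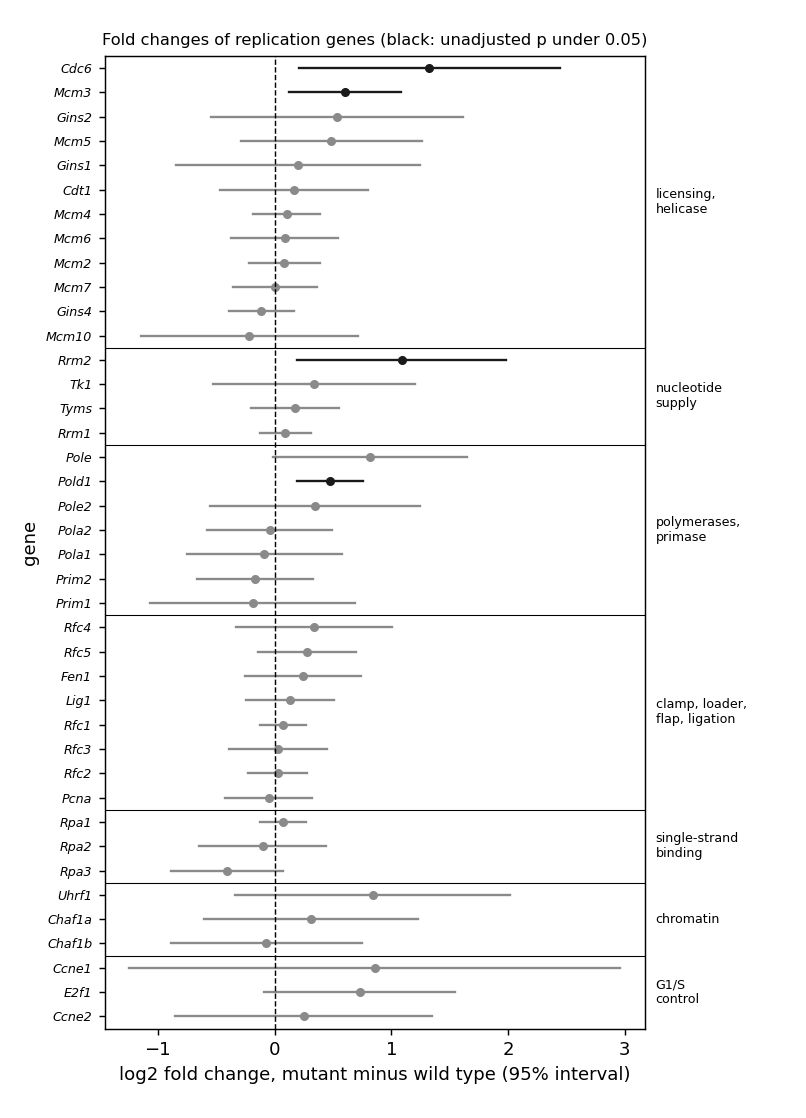
Log2 fold change, mutant minus wild type, with its 95% interval from the edgeR fit (horizontal axis) for each of the 40 genes (vertical axis), grouped by role. Black marks the 4 genes with an unadjusted p under 0.05, which are Cdc6, Mcm3, Rrm2 and Pold1, and the other 36 intervals include 0.

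Mutant 3 was the highest library for 21 of the 40 genes, where it was so for 10.3% of all tested genes, and wild type 1 was the lowest for 20 (19.1% of all genes). Mutant 1 was the highest for 9, near its share over all genes (23.9%), and mutant 2 the lowest for 11 (21.1%). Mutants 1 and 3 were both above all 3 wild types in 18 genes (12.6% of all genes). Mutant 2 was above all 3 wild types in 9 genes (25.7%) and below all 3 in 12 (29.1%), both near the share over all genes. No label pairs the libraries. The pairing by number rests on these same data, and counts within pairs were added after seeing them. These counts are a description and no support for a difference. Within same-numbered pairs, the mutant was above its wild type all 3 times in 17 of the 40 genes, against 15.3% of all genes. It was below all 3 times in Gins4 and Rpa3 (15.6%). The 17 include Uhrf1, Pole, Mcm5 and Ccne1, whose groups overlapped. Each library was also set against the mean of the remaining 5, gene by gene, and the median log2 ratio over the 40 genes taken. It was 0.23 for mutant 1, -0.18 for mutant 2 and 0.24 for mutant 3, and -0.23, -0.13 and 0.08 for the wild-type libraries in order. Mutant 2 thus lay below wild types 2 and 3. Over all tested genes this median was -0.01 to 0.00 in every library.

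The range over the 6 libraries differed between genes. The highest library was 1.76 times the lowest in the median gene and over 2 times in 15 of the 40. Rfc1 at 1.12 times, Rpa1 at 1.17 times and Rrm1 at 1.20 times were the steadiest. Besides Ccne1, the widest ranges were those of Cdc6 (6.56 times), Uhrf1 (5.59 times) and Rrm2 (4.40 times). These 4 genes lay between 0.228 and 8.85 CPM, and the 3 steadiest between 28.9 and 50.0 CPM.

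**Figure D3:**
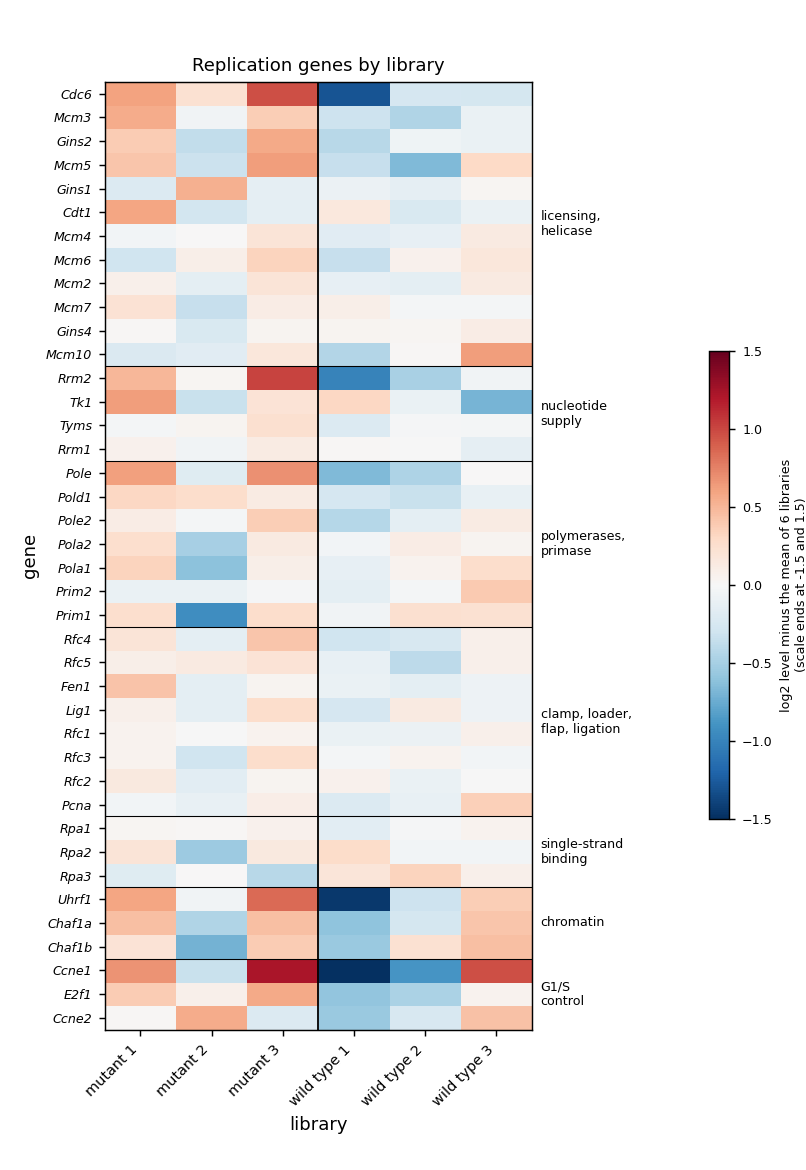
Level of each of the 40 genes (rows, grouped by role) in each library (columns), as log2 TMM-normalised CPM (pseudocount 0.25) minus the mean over the 6 libraries of that gene. Red is above and blue below that mean, and most genes are red in mutants 1 and 3 and blue in wild type 1, while mutant 2 is red for few (it lies above the mean of the other 5 libraries in 12 of 40).

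Per kilobase of merged exons (GENCODE M21) and as a mean over all 6 libraries, Pcna had the highest level, at 25.5 ± 3.82 CPM per kilobase (SD, n = 6), and its lowest library was above the highest of any other member. Next came Gins4 (10.8 ± 0.858), Rpa3 (10.2 ± 1.90), Rfc1 (9.52 ± 0.493) and Rpa1 (9.30 ± 0.504), which overlapped one another. At the low end were Gins2 (0.284 ± 0.0995), Cdc6 (0.409 ± 0.228), Ccne2 (0.479 ± 0.166), Mcm10 (0.509 ± 0.155) and Pole (0.564 ± 0.233), also overlapping. Within the helicase ring, Mcm6 (8.31), Mcm7 (7.54), Mcm4 (6.72) and Mcm2 (6.36) were above Mcm3 (3.38) and Mcm5 (3.18). The authors' annotation is not stated in the sources used here, so these levels per length are approximate. The merged exons of Gins2 span 3.9 kilobases, of which 70.7% overlap Gse1, and its place at the low end depends on that length.

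Genes that held an E2F word were compared with those that did not, as a description. The difference between them was not tested, and a gene without these words may still be acted on by E2F. Of the 12 genes with a word, 11 had a log2 fold change above 0, with a median of 0.26 and a range of -0.09 to 1.33. Without mutant 1 these were 9, with a median of 0.31. Of the 20 with a window and no word, 13 were above 0, with a median of 0.09 and a range of -0.41 to 1.09, and without mutant 1 again 13, with a median of 0.07. Cdc6, Mcm3 and Pold1 are in the first group and Rrm2 in the second, so genes with and without these letters were among the 4 with the smallest p.

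Further replication genes gave a mixed picture. This list and that of E2F and G1/S regulators were chosen with earlier results of these data known, so their counts only describe. Of 43 listed, 42 were in the files and all 42 were tested. No gene of this list passed the 5% threshold in edgeR. At an unadjusted p under 0.05, 4 were higher (3.69% of all genes) and 1 lower (2.89%). Of the list, 28 were above 0, against 51.1% of all genes, and the median was 0.08. Without mutant 1 these were 26 (48.1%) and 0.09. The count of 4 was 1 without wild type 1 (2.23%) or without wild type 2 (1.73%). Samhd1, which breaks down deoxynucleotides and is also known from myeloid cells, stood at 107, 91.2 and 97.5 CPM in the mutant libraries (1 to 3, in order), and at 75.9, 76.0 and 74.0 CPM in the wild-type libraries. All mutants were above all wild types, and the log2 fold change was 0.39 ± 0.08 (edgeR adjusted p = 0.737). DESeq2 called Samhd1 (adjusted p = 0.0289), and without mutant 1 its edgeR fold change was 0.33. Pold2, the second subunit of polymerase delta, was lower in the mutants where Pold1 was higher, at 15.8, 15.0 and 15.1 CPM in the mutant libraries, and at 21.8, 19.6 and 17.6 CPM in the wild-type ones. Its mutants were all below its wild types, with -0.36 ± 0.11 (edgeR adjusted p = 0.737), and the difference from Pold1 was not tested. Orc5, of the origin recognition complex, stood at 18.6, 19.9 and 18.9 CPM in the mutant libraries, and at 14.4, 14.3 and 16.9 CPM in the wild-type ones, with no overlap and 0.33 ± 0.11 (edgeR adjusted p = 0.737).

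E2F factors and G1/S regulators, with 30 of 31 tested, had 18 genes above 0, against 51.1% of all genes, and a median of 0.05. Without mutant 1 these were 19 (48.1%) and 0.06. None was called. At an unadjusted p under 0.05, 3 were higher (3.69% of all genes) and 0 lower (2.89%). With 1 library left out the 3 were 2 without mutant 1 (3.01%), mutant 3 (4.72%), wild type 1 (2.23%) or wild type 2 (1.73%). E2f8 and E2f7, the atypical E2F factors that repress E2F targets late in S phase, led this list. E2f8 stood at 1.74, 1.33 and 1.80 CPM in the mutant libraries (1 to 3, in order), and at 0.274, 0.481 and 0.529 CPM in the wild-type libraries. Its mutants were all above its wild types, at low counts, with a log2 fold change of 1.91 ± 0.46 (edgeR adjusted p = 0.737, 1.85 without mutant 1). E2f7 stood at 1.65, 1.24 and 1.13 CPM in the mutant libraries, and at 0.457, 0.481 and 0.570 CPM in the wild-type ones and did not overlap either, with 1.41 ± 0.43 (edgeR adjusted p = 0.737). Rb1, the retinoblastoma protein that holds E2F in check, had 0.25 ± 0.10 (edgeR adjusted p = 0.737).

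Mitosis genes had the same highest libraries (mutants 1 and 3) and the same lowest (wild type 1) by their median as the replication genes. Of 26 tested, 25 were above 0, against 51.1% of all genes, and the median was 0.84. This list was chosen with earlier results of these data known, so its counts only describe. At an unadjusted p under 0.05, 7 were higher (3.69% of all genes) and 0 lower (2.89%). Without mutant 1, 24 were above 0 (48.1%), 6 were higher (3.01%) and the median was 0.71. The 7 were 3 without mutant 3 (4.72%) or wild type 2 (1.73%), 12 without mutant 2 (6.69%) and 13 without wild type 3 (3.67%). Their median log2 ratio was 0.75 for mutant 1, -0.08 for mutant 2 and 0.77 for mutant 3, and -0.98, -0.41 and 0.12 for the wild-type libraries in order. Mutant 2 was thus below wild type 3, as for the replication genes. Ccnb2, a mitotic cyclin, had 1.13 ± 0.32 (edgeR adjusted p = 0.737), Top2a, a topoisomerase, 1.12 ± 0.33 (edgeR adjusted p = 0.737) and Hmmr, a spindle protein, 1.07 ± 0.34 (edgeR adjusted p = 0.737). The difference between this list and the replication genes was not tested.

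**Figure D4:**
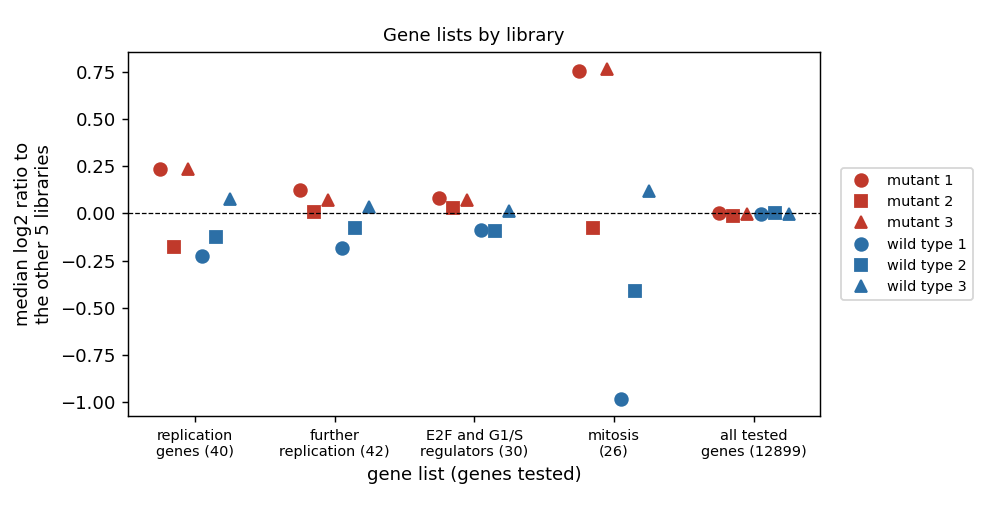
Median over the genes of each list (horizontal axis, with the number of genes tested) of the log2 ratio of a library to the mean of the other 5 (vertical axis), 1 point per library, red for mutants and blue for wild types. For the replication genes mutants 1 and 3 lie at 0.23 and 0.24 and mutant 2 at -0.18, below wild types 2 and 3 at -0.13 and 0.08.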

How the data were processed

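RNA-seq of 3 mutant and 3 wild-type libraries was used. The authors deposited 1 table per library of raw whole-number counts, with a gene symbol in every row. The submitters' processing notes name the genome build mm9 and the tools CASAVA and DESeq2. The aligner, counting program, annotation and strand setting were not given in the sources used here. The reads carried no molecular identifiers as far as the labels say, so floors cover counting error only. Groups came from the sample titles.

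Genes were filtered with filterByExpr by group, leaving 12899 genes with at least 99.65% of each library's counts. After TMM scaling, mutant and wild type were compared by the two-sided quasi-likelihood test of edgeR 4.0.16 in R 4.3.3, and p-values were adjusted by Benjamini-Hochberg across these genes. Intervals are 95% intervals from that fit. CPM values of genes are TMM-normalised, and those of markers, Xist, Ddx3y and Sftpc are per library total. All 40 genes are accounted for. Genes named by rule were the 4 with the smallest p in each role and the 3 with the smallest p in each other list, most of them with their values by library. Mcm6, Prim1 and Pcna are given by library as well, and were chosen after their values were seen. The members and lists were chosen with earlier results of these data known.

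Promoter windows were RefSeq's on GRCm38.p6, and the counts are on mm9, so no position of one was read in the other. Exons of 13 of the 40 genes overlap another gene in GENCODE M21. Pseudogenes named after Pcna and Tyms could share reads with them.

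Library pairs within a group differed by chi-square values of 19.2 to 82.8 per degree of freedom, so none agreed within sampling noise. Same-numbered mutant and wild-type libraries deviated together (r across genes of 0.25, 0.16 and 0.16 for numbers 1, 2 and 3). Differently numbered ones gave r of -0.21 to 0.08. Deviations were taken from each group's mean, so they sum to 0 within a group. Where some r are above 0, others are thereby forced down, and the contrast is partly fixed by this step. The number was treated as a pair from the data alone. No label gives a pairing, and whether the pairs are real was not tested. Counts within pairs were added after seeing the data. Alternatives were other scaling factors and filters, DESeq2 1.42.0, limma-voom with quality weights (limma 3.58.1), robust dispersion, the replicate block and leaving out each library. Leaving out mutant 1 and wild type 2 together and DESeq2 without mutant 1 were chosen after seeing the data.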

Additional observations from a re-analysis of the deposited data

How the results depend on the processing

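No alternative called any of the 40 genes (638 pairs of gene and alternative over 16 alternatives). With all genes counted, DESeq2 called 38 and, without mutant 1, 22, and leaving out 1 library in edgeR gave 0 to 1 (the 1 without wild type 3). Leaving out 1 library gave 6 to 17 genes with all mutants above all wild types, 27 to 34 genes above 0, and medians of 0.07 to 0.19. Over all tested genes, all mutants then lay above in 1105 of 13274 (without wild type 2) to 1694 of 13264 (without mutant 2). With all libraries this was 675 of 12899, so the count rises for all genes when a library is left out. Genes above 0 were then 48.1% (without mutant 1) to 52.3% (without wild type 3) of all. The replicate block, which uses a pairing of the numbers that no label gives, changed no call. It gave 29 genes above 0, a median of 0.13 and 5 genes at an unadjusted p under 0.05. The sign held under every alternative for 25 of the 40 genes, 23 of them above 0 and Gins4 and Rpa3 below. It turned in 34 of the 638 pairs, spread over 15 genes, and the cause was not tested.

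Mcm7, at 0.01 with all libraries, was -0.00571 without a filter on low counts, -0.0138 under the replicate block, -0.12 without mutant 1 and wild type 2 together, and -0.10 by DESeq2 without mutant 1. In those last 2 settings Cdt1 was -0.24 and -0.16 and Rfc2 -0.0782 and -0.0365. By limma-voom Pcna was 0.0547, Rpa2 0.0138 and Chaf1b 0.00669. With 1 library left out, the genes whose sign turned ranged as follows in log2 fold change: Ccne2 -0.0401 to 0.65, Cdt1 -0.16 to 0.33, Chaf1b -0.32 to 0.19, Gins1 -0.14 to 0.36, Mcm10 -0.45 to 0.14, Mcm6 -0.0723 to 0.24, Mcm7 -0.11 to 0.15, Pcna -0.16 to 0.14, Pola1 -0.30 to 0.14, Pola2 -0.19 to 0.15, Prim1 -0.38 to 0.12, Prim2 -0.27 to 0.0128, Rfc2 -0.0414 to 0.10, Rfc3 -0.11 to 0.17 and Rpa2 -0.23 to 0.10. Genes under about 2 CPM, such as Cdc6, Gins1, Gins2, Pole2, Ccne1 and Ccne2, are the most limited by depth.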
